A study of Mus musculus with 6 samples.

Results

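The genes of glycolysis, of glucose and lactate transport and of the response to low oxygen were followed in ribosome-bound mRNA of mouse brain 24 h after an experimental stroke. A list of 32 genes was set by function, with earlier results of these data known. Each of the 32 had at least 1 transcript cluster under its own symbol, among 29458 genes tested. A transcript cluster is the group of probes that reads a gene on the array. The list holds 15 core glycolytic enzymes, 2 regulators of phosphofructokinase, 3 enzymes that set the fate of pyruvate and lactate, 4 transporters, and 8 genes of hypoxia-inducible factor (HIF) and its targets. The stroke group comprised 3 Affymetrix MoGene-2_0-st arrays from mice taken 24 h after tMCAO, a transient block of the middle cerebral artery that is then released. The control group comprised 3 arrays from sham-operated mice. All animals of both groups were CD11brGFP transgenic mice of 2 to 3 months that carry Flag/EGFP-tagged RPL10a, a ribosomal protein, under the CD11b promoter, so the controls share the transgene and no wild-type animals were used. That promoter is active in microglia and in other myeloid cells, and mRNA was pulled down with the tagged ribosomes (TRAP). The labels give 6 mice and 3 biological replicates per group without saying how mice map to arrays, and they name the animals as males in one place and as an equal mix of sexes in another.

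Glycolysis turns glucose into pyruvate through a chain of cytosolic enzymes, and lactate dehydrogenase turns pyruvate into lactate when oxygen is short or when cells are activated. Hypoxia-inducible factor is controlled mainly at the level of its HIF1A protein, which prolyl hydroxylases of the EGLN family mark for destruction while oxygen is present. Once stable, it binds DNA at a short core of ACGTG or GCGTG and raises transcription of glucose transporters, many glycolytic enzymes and genes such as Vegfa and Adm. In the brain the pathway is shared by all cell types, and activated microglia and macrophages are known for a shift towards glycolysis.

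Values are log2 signals, with array medians over all clusters between 5.23 and 5.35. Along the first principal component, which held 45.1% of the variance, the arrays numbered 2 lay at 34.6 for stroke and 48.9 for control, while the other 4 lay between -26.6 and -14.4. The labels do not say what the array number stands for. Neuron markers were far above the array medians, with a mean over 9 genes of 11.02 to 11.13 in stroke arrays and 11.02 to 11.15 in control arrays. The mean over 10 microglia markers was 7.18 to 7.51 in stroke arrays and 6.83 to 7.24 in control arrays. Messages of cells outside the CD11b lineage were thus read in these preparations, and in such bulk samples fewer cells of a type and less RNA per cell cannot be told apart. No detection calls were used, so a low signal is not shown to be above background.

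At 24 h the log2 difference between stroke and control preparations was under 0.2 in size for 12 of the 15 core enzymes (80%, against 71.7% of all genes). The hexokinase Hk2 at 0.67 and the enolase Eno1 at -0.39 were the core enzymes whose arrays did not overlap. The preparations held messages of several cell types. None of the 32 genes passed the threshold (limma, adjusted p under 0.05 over all genes), with 0 higher and 0 lower, where 0.424% of all genes passed in either direction. Those were 124 higher genes (0.421%) and 1 lower gene (0.00339%), and with 1 array left out in turn between 25 and 73 were higher. With the array number as a block 3 genes were lower. Unadjusted p values under 0.05 were found for 5 of the 32 on the higher side, against 3.69% of all genes, and for 1 on the lower side, against 2.07%. The largest differences were those of Adm, a vasodilator peptide and HIF target, of the inducible hexokinase Hk2 and of the glucose transporter Slc2a1, at 0.93, 0.67 and 0.51 on the log2 scale. Their adjusted p values in the limma fit were 0.304, 0.413 and 0.625, and with the array number as a block 0.156, 0.0919 and 0.181.

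The difference between group means was under 0.2 in size for 25 of the 32 genes (78.1%), as for 71.7% of all genes. Its median over the 32 genes was 0.07, with a range of -0.39 to 0.93, and over all genes it was -0.01. The 95% interval of the difference lay within 2-fold either way for 30 of the 32 genes, all but Hk2 and Adm, against 94.4% of all genes. The median standard error was 0.15 for the 32 genes and 0.17 for all genes. The smallest difference among the genes called was 0.84 in size, so no gene with a smaller difference was called. Stroke and control arrays did not overlap for Hk2, Slc2a1, Egln3, Adm and Eno1, that is for 15.6% of the list against 11.2% of all genes. In 4 of these 5 the stroke arrays were the higher ones (12.5%, against 6.34% of all genes), and in 1 the lower ones (3.12%, against 4.89%). The 3 genes that also differed by at least 0.5, all higher, were 9.38% of the list, against 2.11% of all genes. On the lower side 0 genes of the list differed by as much, against 0.519% of all genes. Since the list was chosen with earlier results of these data known, these shares only describe it.

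**Figure D1:**
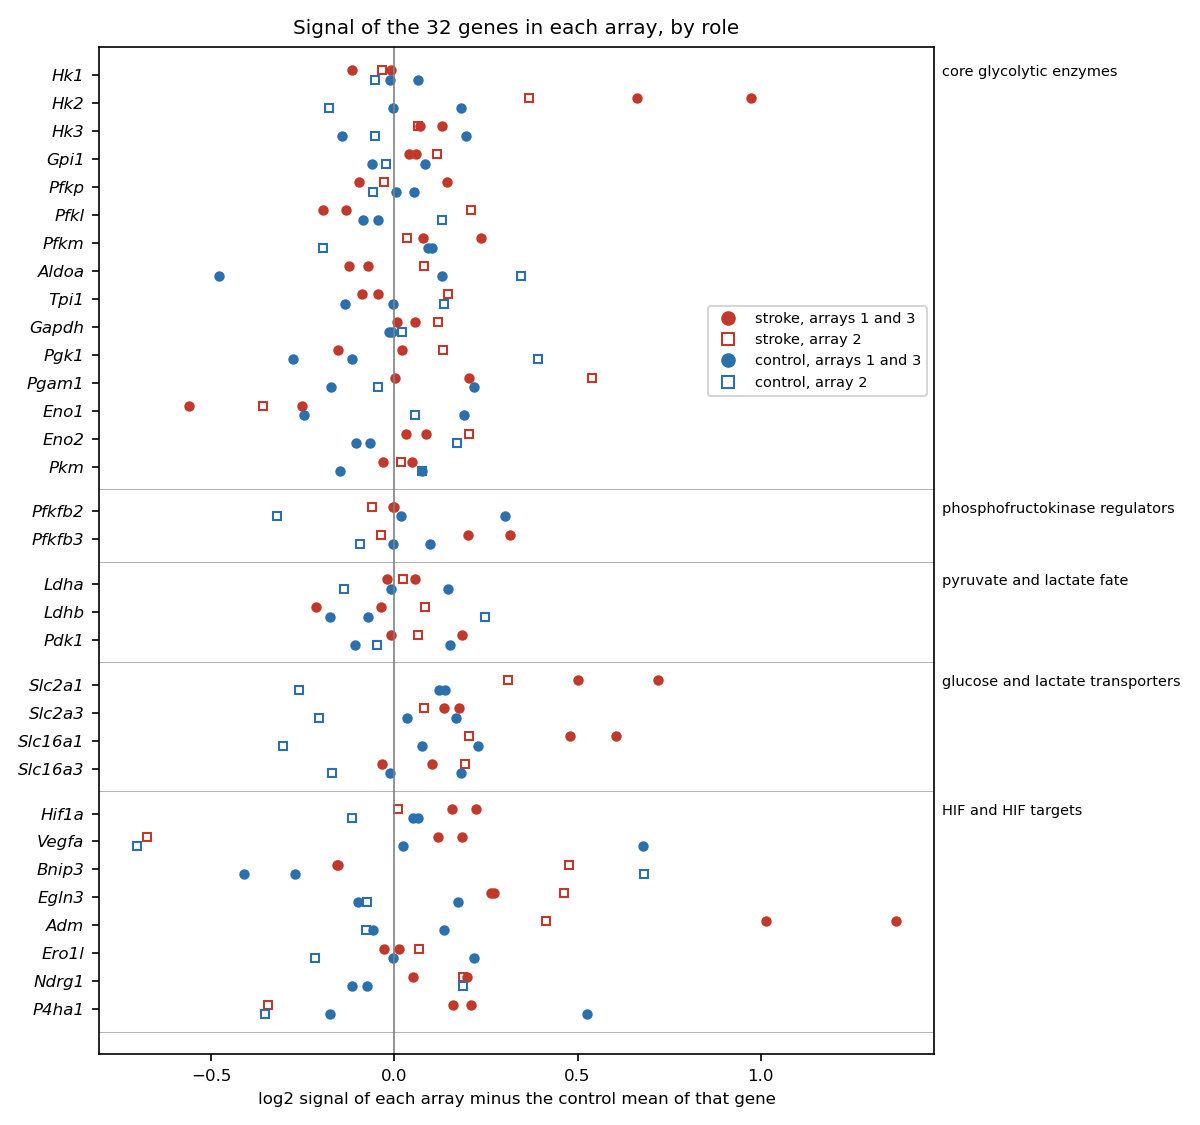
Signal of each of the 32 genes (rows, grouped by role) in each array, as log2 signal minus that gene's control mean; red marks are stroke arrays, blue marks control arrays, and open squares the arrays numbered 2. Adm, Hk2 and Slc2a1 have all red marks to the right of all blue marks, while the arrays numbered 2 sit together at the left for Vegfa and at the right for Bnip3.

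**Figure D2:**
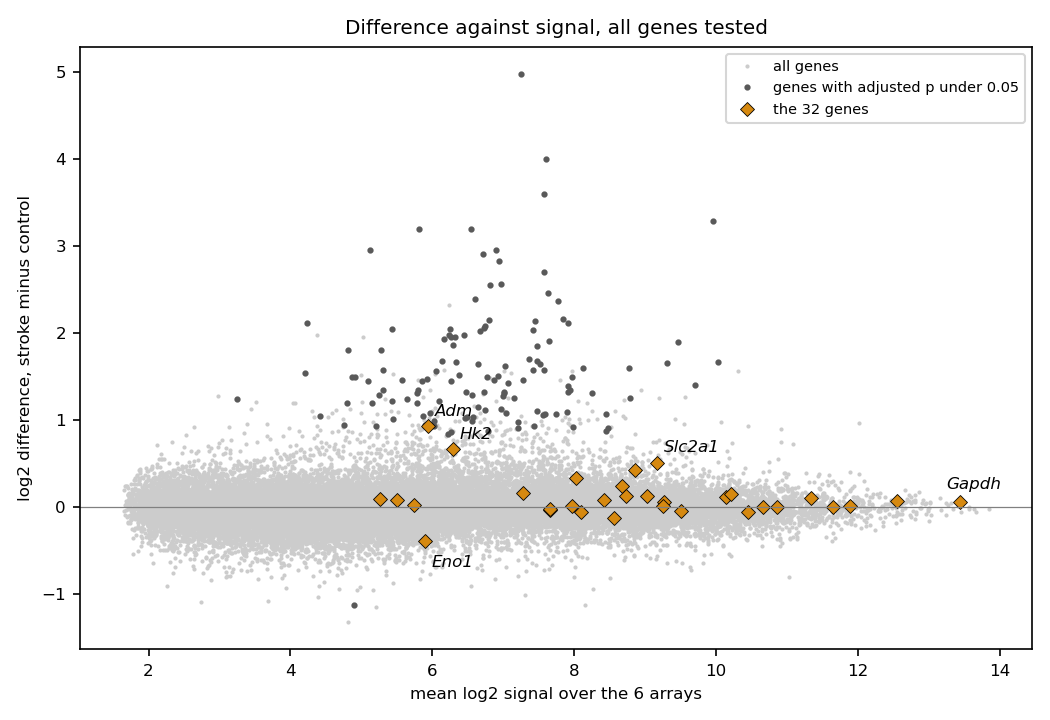
Log2 difference, stroke minus control, against the mean log2 signal over the 6 arrays, for all 29458 genes (pale grey), the 125 genes with an adjusted p under 0.05 (dark grey) and the 32 genes of the list (diamonds). The diamonds of 25 of the 32 genes lie within 0.2 of 0, Eno1 at -0.39 is the lowest, and Adm at 0.93 is the highest of them.

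Hexokinases take the first step by phosphorylating glucose. Hk2, the form that is induced by HIF and on myeloid activation, was at 6.62, 6.32 and 6.93 in stroke arrays and at 5.96, 5.78 and 6.14 in control arrays. All stroke arrays were above all control arrays. The difference was 0.67 (1.59-fold, 95% interval 0.24 to 1.096), and it was 0.66, 0.55 and 0.79 between arrays of like number. Over the 15 alternative fits it ran from 0.51, without stroke array 3, to 0.82, without stroke array 2. The control signals of Hk2 were close to the array medians, so whether they exceed background is not known and the size of the fold is uncertain. Hk1, the main hexokinase of brain, was at 8.01, 8.09 and 8.11 in stroke arrays and at 8.19, 8.07 and 8.11 in control arrays. Hk3, a hexokinase of myeloid cells, was at 5.34, 5.28 and 5.28 in stroke arrays and at 5.41, 5.16 and 5.07 in control arrays. For Hk1 and Hk3 the groups overlapped, with differences of -0.05 (interval -0.34 to 0.23) and 0.09 (interval -0.23 to 0.41). The difference between Hk2 and the other hexokinases was not tested.

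Hk2 lies on chromosome 6 (82725025 to 82774454, GRCm38.p6). The sequences of RefSeq (GRCm38.p6) before the start sites of Hk2, Slc2a1 and Adm are printed because these are the 3 genes of the list with separated arrays and a difference of at least 0.5, and that of Bnip3 because it holds 5 HIF core motifs beside a difference of 0.06. Each is the 250 bases up to the annotated start, 5′ to 3′ on the strand of the gene, and capitals mark the motif ACGTG or GCGTG on either strand (on the opposite strand it reads CACGT or CACGC). The windows are chr7:110627407-110627656 (+ strand) for Adm, chr6:82774455-82774704 (- strand) for Hk2, chr4:119108495-119108744 (+ strand) for Slc2a1 and chr7:138909507-138909756 (- strand) for Bnip3, on the mm10 coordinates of GRCm38.p6.
Adm: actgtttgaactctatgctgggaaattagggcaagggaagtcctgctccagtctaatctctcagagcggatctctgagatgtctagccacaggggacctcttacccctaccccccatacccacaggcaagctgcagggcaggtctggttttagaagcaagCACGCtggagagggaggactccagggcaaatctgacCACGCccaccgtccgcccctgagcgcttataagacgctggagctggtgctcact
Hk2: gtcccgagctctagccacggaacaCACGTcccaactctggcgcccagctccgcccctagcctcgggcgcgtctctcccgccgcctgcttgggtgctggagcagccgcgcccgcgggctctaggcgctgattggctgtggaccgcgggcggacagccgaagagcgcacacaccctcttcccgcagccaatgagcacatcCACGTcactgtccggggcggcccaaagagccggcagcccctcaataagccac
Slc2a1: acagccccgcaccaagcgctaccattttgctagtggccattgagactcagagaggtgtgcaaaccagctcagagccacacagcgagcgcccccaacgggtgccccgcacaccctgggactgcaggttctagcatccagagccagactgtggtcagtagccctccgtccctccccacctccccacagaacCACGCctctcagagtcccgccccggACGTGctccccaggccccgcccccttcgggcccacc
Bnip3: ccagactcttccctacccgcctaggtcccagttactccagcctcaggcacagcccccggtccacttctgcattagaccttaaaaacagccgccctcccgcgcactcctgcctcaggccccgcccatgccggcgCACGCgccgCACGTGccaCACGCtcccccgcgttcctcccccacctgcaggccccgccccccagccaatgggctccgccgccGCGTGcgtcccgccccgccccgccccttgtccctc
Adm, Hk2 and Slc2a1 each hold 2 matches, which begin 90 and 54, 226 and 52, and 61 and 36 bases before the start. In Bnip3, 2 of the 5 matches overlap, since the palindrome formed by ACGTG and its reverse complement is read on both strands. At least 1 match was present at an annotated start of 27 of the 30 members with a promoter in the table (90%), against 41.5% of all 27025 genes and 47.1% of 17492 protein-coding genes. A gene with several annotated starts had more windows in which to match, and the number of starts was not matched. The list also holds genes chosen as HIF targets. The motif contains a CG pair, and the promoter richest in such pairs of each gene held a median of 15 in the list, 6 over all genes and 11 over protein-coding genes. A match is a description of letters and not a binding site, and it was found in genes with differences near 0 as well as in Adm, Hk2 and Slc2a1; Ldha, at a difference of 0.02, had 5 matches at one of its starts. Gpi1, Tpi1 and Eno2 had none in these windows.

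Most enzymes downstream of hexokinase had differences near 0, with Pgam1 and Eno1 the largest in size. Gapdh, which oxidises glyceraldehyde 3-phosphate and is often used as a loading control, was at 13.42, 13.54 and 13.47 in stroke arrays and at 13.40, 13.44 and 13.41 in control arrays. The groups overlapped, and the difference of 0.06 had an interval of -0.22 to 0.34. Gapdh had 6 clusters under its symbol alone, of which 5 had control means of 12.92 to 13.42 and differences of 0.05 to 0.07. Of those, 2 held identical values in every array and are 1 measurement. The remaining cluster was dim, at 4.41 ± 0.16 in stroke and 4.17 ± 0.70 in control (log2 signal, SD, n = 3 arrays each). One further cluster, shared with the pseudogene Gapdh-ps15, differed by 0.0013 in the fit of all clusters with a symbol (limma, adjusted p = 0.9998), where 0.358% of clusters passed. Gapdh has many near-identical pseudogenes, and these probes cannot be told apart from them.

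Pkm, the pyruvate kinase of the last step, was at 11.85, 11.90 and 11.93 in stroke arrays and at 11.96, 11.96 and 11.73 in control arrays. The groups overlapped, and the difference of 0.01 had an interval of -0.29 to 0.31. Its cluster does not separate the PKM1 and PKM2 splice forms. The phosphofructokinases, which make the committed step, differed by 0.01 for Pfkp, by -0.04 for Pfkl and by 0.12 for Pfkm. Glucose-6-phosphate isomerase (Gpi1) differed by 0.07, triosephosphate isomerase (Tpi1) by 0.0044, phosphoglycerate kinase (Pgk1) by -0.00047 and the neuronal enolase Eno2 by 0.11. For all of these the arrays of the groups overlapped. Aldolase A (Aldoa) differed by -0.04 with an interval of -0.53 to 0.46, the widest among the core enzymes, since its control arrays ran from 7.21 to 8.03. Phosphoglycerate mutase (Pgam1) differed by 0.25 with overlapping groups (interval -0.17 to 0.67).

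Eno1, the general enolase, was the one core enzyme whose stroke arrays all lay below the controls. It was at 5.84, 5.73 and 5.53 in stroke arrays and at 6.28, 6.15 and 5.84 in control arrays. The highest stroke array (5.836) and the lowest control array (5.843) nearly touched. Its difference was -0.39 (interval -0.77 to -0.02, adjusted p = 0.848 in the limma fit). Eno1 signal was close to the array medians, so its level is not shown to be above background and its difference says little about Eno1 mRNA. It is named with its values because its groups did not overlap, although its difference was under 0.5. Over the 15 core enzymes, 0 passed, 10 were above 0 and 5 below, and the median difference was 0.01. The 9 neuron markers had a median difference of 0.0039, with 5 above 0 and 4 below, and 0 of 9 passed. The part of neurons and other cells in the core values was not tested.

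Neither regulator of phosphofructokinase separated the groups. Pfkfb3, which makes the strongest activator of phosphofructokinase and is a HIF target, was at 7.51, 7.16 and 7.40 in stroke arrays and at 7.19, 7.11 and 7.29 in control arrays. The groups overlapped, with a difference of 0.16 (interval -0.17 to 0.49). Pfkfb2, a related enzyme, differed by -0.02, and its control arrays ran from 7.35 to 7.97.

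The enzymes at the branch between lactate and mitochondria did not separate the groups either. Ldha, the lactate dehydrogenase subunit that favours lactate formation, was at 5.71, 5.75 and 5.78 in stroke arrays and at 5.88, 5.59 and 5.72 in control arrays. The control arrays spanned all stroke arrays, and the difference of 0.02 had an interval of -0.29 to 0.33. The Ldha cluster gave signals close to the array medians, so its level is not shown to be above background and its difference says little about Ldha mRNA. Ldhb, the subunit of oxidative tissue, was at 10.26, 10.56 and 10.44 in stroke arrays and at 10.40, 10.73 and 10.30 in control arrays. Pdk1, a kinase that shuts pyruvate dehydrogenase and a HIF target, was at 8.37, 8.44 and 8.56 in stroke arrays and at 8.27, 8.33 and 8.53 in control arrays. Both genes overlapped between groups, with differences of -0.05 (interval -0.43 to 0.32) and 0.08 (interval -0.24 to 0.40).

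The 4 transporters all had positive differences, with a median of 0.28, and 0 of them passed. Without control array 2 that median was 0.15, with Slc16a1 at 0.28 and Slc16a3 at 0.0025, and without both arrays numbered 2 Slc16a3 was at -0.05. Slc2a1 encodes GLUT1, the glucose transporter of the blood-brain barrier and of glia, and lies at 119108745 to 119137330 of chromosome 4. It was at 9.41, 9.22 and 9.63 in stroke arrays and at 9.05, 8.65 and 9.03 in control arrays. All stroke arrays were above all control arrays, and array 2 was the lowest of each group. The difference was 0.51 (1.42-fold, interval 0.12 to 0.91), and without both arrays numbered 2 it was 0.48. Over the 15 alternative fits it ran from 0.38, without control array 2, to 0.61, without stroke array 2. Slc16a1 (MCT1), a lactate and ketone transporter of endothelium and glia, was at 9.25, 8.85 and 9.13 in stroke arrays and at 8.72, 8.35 and 8.88 in control arrays. Its groups overlapped only through stroke array 2 and control array 3. The difference was 0.43 (interval 0.01 to 0.85, adjusted p = 0.859 in the limma fit).

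Slc2a3 (GLUT3), the main glucose transporter of neurons, was at 8.80, 8.74 and 8.84 in stroke arrays and at 8.83, 8.46 and 8.70 in control arrays. Slc16a3 (MCT4), the lactate exporter of glycolytic cells and a HIF target, was at 5.56, 5.65 and 5.42 in stroke arrays and at 5.44, 5.29 and 5.64 in control arrays. Both overlapped between groups, with differences of 0.13 and 0.09. Beside Slc2a1 and Slc16a1, the 7 of 8 astrocyte markers with a cluster of their own had a mean signal of 9.19 to 9.35 in stroke arrays and 8.87 to 9.12 in control arrays, with a median difference of 0.30, with Slc1a3 at 0.60 and Aqp4 at 0.48, and 0 of 7 passed. The remaining marker, Gfap, the filament protein of reactive astrocytes, has a cluster shared with Gm39395, which was at 11.22, 10.93 and 11.24 in stroke arrays and at 9.37, 8.94 and 9.60 in control arrays. It rose 3.54-fold, with a difference of 1.82 (limma over all clusters with a symbol, adjusted p = 0.0139, where 0.358% of clusters passed). The 10 endothelial and mural markers had a mean of 6.11 to 6.89 in stroke arrays and 6.35 to 6.72 in control arrays, with 4 differences above 0 and 6 below, a median of -0.13 and a range of -0.40 for Abcb1a to 0.65 for Cdh5, with Cldn5 at -0.23, and 0 of 10 passed. The part of these cell types in the transporter values was not tested.

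**Figure D3:**
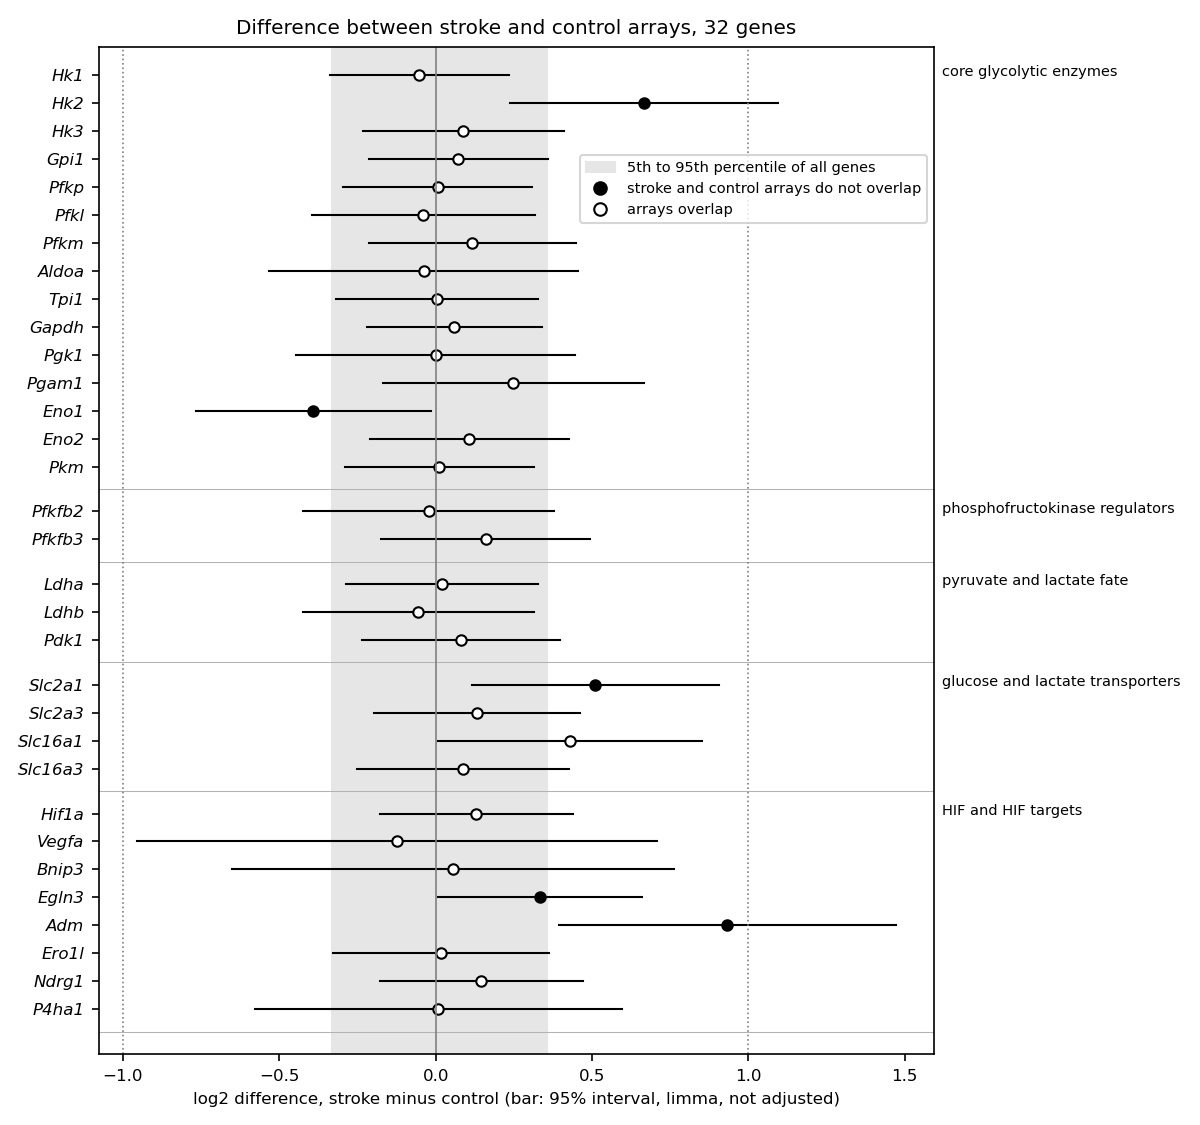
Log2 difference, stroke minus control, of each of the 32 genes with its 95% interval from limma (not adjusted for many genes), grouped by role; filled points mark genes whose stroke and control arrays do not overlap, grey shading spans the 5th to the 95th percentile of all genes (-0.33 to 0.36), and dotted lines mark 2-fold. The intervals of Adm and Hk2 reach past 2-fold, and those of most core enzymes lie around 0.

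Hif1a, the oxygen-regulated subunit itself, was at 9.18, 8.97 and 9.11 in stroke arrays and at 9.01, 8.84 and 9.02 in control arrays. The groups overlapped, and the difference of 0.13 had an interval of -0.18 to 0.44. The arrays measure its mRNA and not the HIF1A protein. Over the 8 genes of this role 0 passed, 7 were above 0 and 1 below, and the median difference was 0.09. That median was 0.17 without stroke array 2, 0.16 without control array 2 and 0.19 without control array 3.

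Adm, at 110627657 to 110629820 of chromosome 7, encodes adrenomedullin, which widens vessels and tightens endothelium. It was at 6.49, 5.89 and 6.84 in stroke arrays and at 5.61, 5.40 and 5.42 in control arrays. All stroke arrays were above all control arrays, but they spread widely, with an SD of 0.48 in stroke and 0.12 in control. The difference was 0.93 (1.91-fold, interval 0.39 to 1.47), the largest among the 32 genes. The control signals were close to the array medians, so whether they exceed background is not known and the size of the fold is uncertain. Between arrays of like number it was 0.88, 0.49 and 1.43, and without both arrays numbered 2 it was 1.15 (adjusted p = 0.0904 in the limma fit). Over the 15 alternative fits the difference ran from 0.71, without stroke array 3, to 1.19, without stroke array 2. The adjusted p of Adm in those limma fits lay between 0.0603 and 0.814. The authors' deposited table gives Adm a fold of 2.04 with an adjusted p of 0.3531. Its group averages for Adm are 6.44 and 5.41, where the array means used here are 6.41 and 5.48.

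Egln3, a prolyl hydroxylase that marks HIF for destruction and is itself a HIF target, was at 8.13, 8.33 and 8.14 in stroke arrays and at 8.04, 7.79 and 7.77 in control arrays. Its groups did not overlap, for which it was singled out after its values were seen, and the difference was 0.33 (interval 0.01 to 0.66, adjusted p = 0.858 in the limma fit). Ndrg1, a stress gene induced by low oxygen and also prominent in myelinating cells, differed by 0.15, and the 7 oligodendrocyte markers had a median difference of 0.07 with 0 of 7 past the threshold. Ero1l, an oxidase that helps disulfide bonds form in the endoplasmic reticulum, differed by 0.02, and both overlapped between groups.

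Beside Adm and Hk2, the myeloid markers gave these values. The microglia list had a median difference of 0.25 and 0 of 10 passed. There 9 differences were above 0, the largest that of C1qa at 0.71, and 1 was below, that of P2ry12 at -0.40. The 8 monocyte markers had a mean signal of 5.06 to 5.11 in stroke arrays and 4.62 to 4.79 in control arrays, and 1 of 8 rose, Cd44 at 1.47 (limma, adjusted p = 0.0127). The 8 neutrophil markers had a mean of 5.09 to 5.29 in stroke arrays and 4.39 to 4.52 in control arrays, and 1 of 8 rose, Lcn2 at 2.82 (limma, adjusted p = 0.00493). S100a8 at 1.24 and S100a9 at 1.10 did not pass (limma, adjusted p = 0.111 and 0.257), with control means of 4.72 and 3.75, below the array medians. In the monocyte list and in the neutrophil list alike, 7 differences were above 0 and 1 below. In each, 4 of 8 genes had all stroke arrays above all control arrays, against 6.34% of all genes. Of these, Cd44, Ly6c2, Ccr2, Chil3 and Mmp8 had control means of 5.19, 3.82, 3.79, 3.59 and 4.06, also below the array medians. That of Lcn2 was close to them, at 5.54. These control levels are not shown to be above background. Cd44 and Lcn2 are also expressed by reactive astrocytes. Of all genes, 0.421% were called higher. The part of these cells in the Adm and Hk2 values was not tested.

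Vegfa, Bnip3 and P4ha1 varied more within the groups than between them, and Bnip3 and P4ha1 were singled out after their values were seen. Vegfa, the endothelial growth factor and a classical HIF target, was at 8.81, 7.95 and 8.74 in stroke arrays and at 8.65, 7.92 and 9.30 in control arrays. Bnip3, a receptor for the removal of mitochondria, was at 9.09, 9.72 and 9.09 in stroke arrays and at 8.97, 9.92 and 8.84 in control arrays. P4ha1, a collagen prolyl hydroxylase subunit, was at 8.18, 7.62 and 8.13 in stroke arrays and at 7.79, 7.61 and 8.49 in control arrays. Array 2 was the lowest of each group for Vegfa and P4ha1 and the highest of each group for Bnip3. For Vegfa it differed from the mean of the other arrays by -0.83 in stroke and -1.05 in control, for Bnip3 by 0.63 and 1.02, and for P4ha1 by -0.53 in either group, although control arrays 1 and 2 of P4ha1 were close and control array 3 was the one apart. These were the 3 members (9.38%) in which array 2 stood at least 0.5 apart in the same direction in both groups, against 7.31% of all genes.

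The differences between stroke and control were -0.12 for Vegfa (interval -0.95 to 0.71), 0.06 for Bnip3 (interval -0.65 to 0.76) and 0.01 for P4ha1 (interval -0.58 to 0.60). These were the 3 widest intervals of the list. Without both arrays numbered 2 the differences were -0.20, 0.18 and 0.01, and with a single array left out that of Vegfa ran from -0.48 to 0.22 and that of Bnip3 from -0.16 to 0.40.

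**Figure D4:**
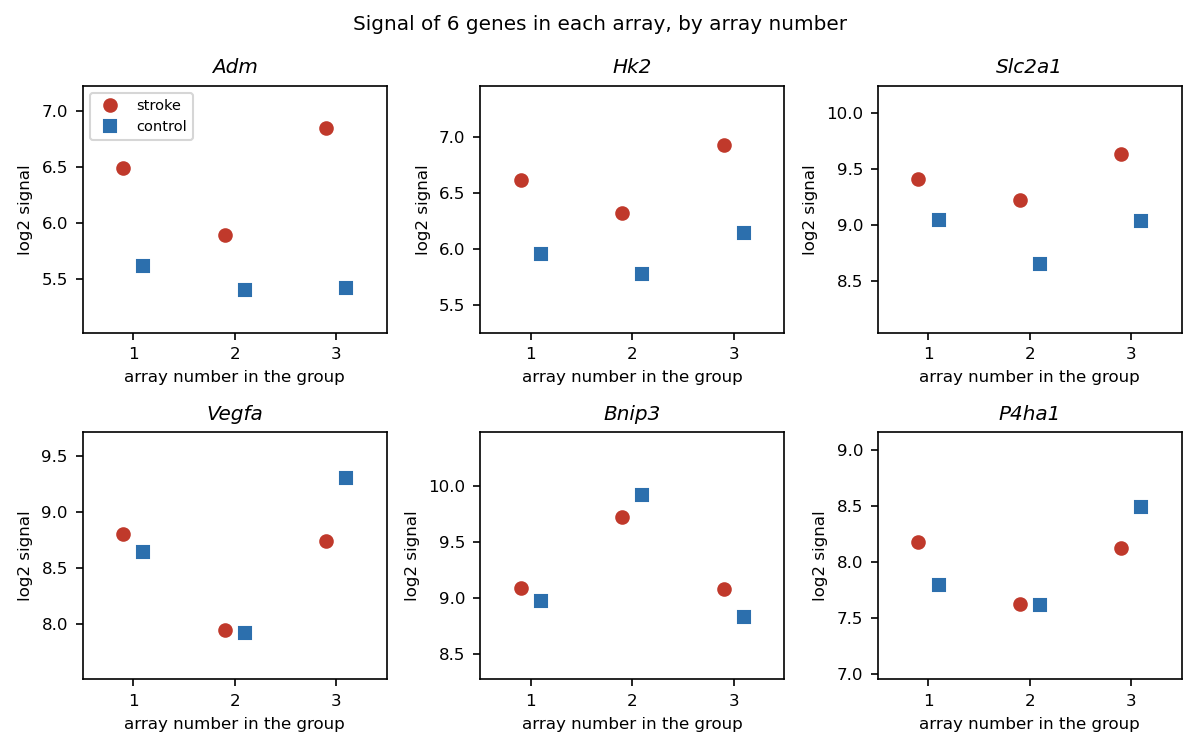
Log2 signal of Adm, Hk2 and Slc2a1 (top) and of Vegfa, Bnip3 and P4ha1 (bottom) in each array, by array number within its group, with stroke as red circles and control as blue squares and the same span on each vertical axis. In the top row stroke is above control at each number, and in the bottom row array 2 stands apart in both groups for Vegfa and Bnip3; for P4ha1 it is the lowest of each group, close to array 1 in control.

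Further genes of the same pathways were read from lists by function, also chosen with earlier results of these data known. Of 77 measured genes, 1 passed. Angptl4, a secreted inhibitor of lipoprotein lipase that HIF and PPAR factors induce, was at 6.44, 6.30 and 6.36 in stroke arrays and at 5.57, 5.37 and 5.33 in control arrays. All stroke arrays were above all control arrays. It rose 1.92-fold, with a difference of 0.94 (interval 0.64 to 1.25, adjusted p = 0.0362 in the limma fit), against 0.424% of all genes called. It was past the threshold in 8 of 15 alternative fits, among them the fit with the array number as a block (adjusted p = 0.0316), and in none of the fits with fewer arrays, where the adjusted p lay between 0.0845 and 0.187. Angptl4 lies on chromosome 17 (33774900 to 33781575). As for Adm, its control signals were close to the array medians and may not exceed background. Its difference was close in size to that of Adm, and its stroke SD was 0.07 against 0.48 for Adm.

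Of 25 other HIF pathway genes, 1 rose and 0 fell, with a median difference of 0.07. The 15 other glycolysis enzymes (median -0.03), 12 other sugar and monocarboxylate transporters (0.03), 11 measured of 12 genes of pyruvate entry into mitochondria (-0.03), 6 measured of 7 pentose phosphate genes (0.06) and 8 glycogen genes (0.12) had none past the threshold. The largest differences there were those of Pgam2, the muscle phosphoglycerate mutase (0.32), of Slc2a6, a glucose transporter of myeloid cells (0.21), and of Pdk4, an inhibitory kinase of pyruvate dehydrogenase (0.65). In the last lists these were Pgd, the phosphogluconate dehydrogenase of the pentose phosphate pathway (0.50), and Pygm, the muscle glycogen phosphorylase (0.37). The adjusted p values of these 5 in the limma fit lay between 0.364 and 0.9998.

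**Figure D5:**
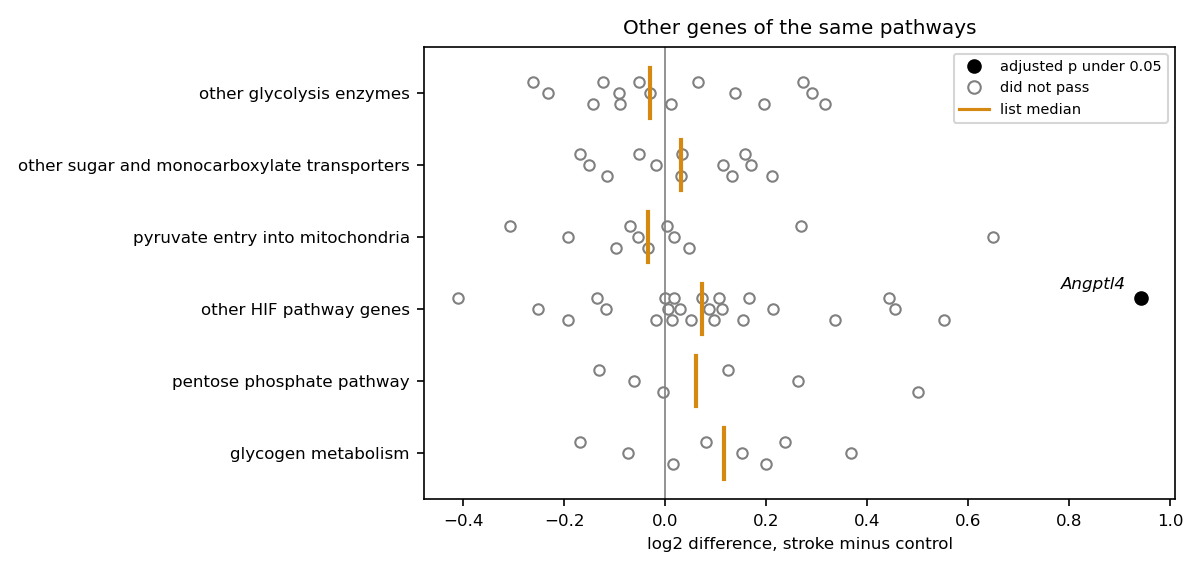
Log2 difference, stroke minus control, of 77 further genes of the same pathways by list, with filled points for an adjusted p under 0.05 and a bar at each list median. Angptl4 at 0.94 is the one filled point, and the list medians run from -0.03 to 0.12.

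The authors' deposited table, read at the same clusters, holds 0 of the 32 genes at an adjusted p under 0.05 and 6 at an unadjusted p under 0.05. Besides Adm these were Hk2, Slc2a1, Slc16a1 and Egln3 at folds of 1.59, 1.3, 1.33 and 1.28, and Eno1 at -1.33, where the sign marks a lower signal in stroke. These folds rest on group averages that are not the array means used here. For Slc2a1 in control the average was 9.04, against a mean of 8.91. The 2 measures can therefore differ, as for Vegfa and P4ha1, with deposited folds of 1.11 and 1.31 beside differences of -0.12 and 0.01. The 32 genes lie on 16 chromosomes, with 6 on chromosome 6, where Tpi1 (124810586 to 124814158) and Eno2 (124760053 to 124769673) are close to each other. Their differences of 0.0044 and 0.11 did not set them apart from the other core enzymes.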

How the data were processed

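TRAP RNA was hybridized to 6 arrays, with 100 ng put in for each. The deposited value table holds 1 log2 signal for each transcript cluster on each array, which the authors made with Transcriptome Analysis Console, per the series' design text and the submitters' processing notes. How it summarised, normalized and tested is not stated there. A deposited workbook compares stroke with control and, per the file headers, gives log2 averages, a signed fold (a score, negative where stroke is lower), a p-value and its adjustment, on annotation na36 of mm10. All value columns were used (0 left out).

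Symbols came from the workbook. Of 41345 clusters, it lacked 6873, left 2599 unnamed and gave several symbols to 1902. The 29971 others gave 29458 genes, with the brightest cluster kept for 381 symbols with more than 1. Stroke minus control was fitted with limma 3.58.1 in R 4.3.3 (lmFit, eBayes) without a filter, and p-values were adjusted by Benjamini-Hochberg across the whole table, with calls made under 0.05. The procedure was tested on simulated data. The members and lists were chosen with earlier results of these data known. Values in every array are given for members past the threshold, for those with separated groups and a difference of at least 0.5, and for 15 members named by role; elsewhere, genes past the threshold or the largest difference of a list are named. Positions and promoters are from RefSeq GRCm38.p6, where all 32 members were found (1 by synonym, Ero1l as Ero1a) and 30 had a promoter.

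The replicate numbers are those of the sample titles, and the labels do not say what they mark. Deviations from the group means correlated across genes at r = 0.299, 0.576 and 0.390 between arrays of like number and from -0.460 to 0.237 between unlike numbers, so the numbers were treated as a pairing in an alternative fit. Genes are not independent, and the 3 deviations of a group sum to 0. Other alternatives were quantile normalization, centring on the array median, array weights, a filter at the median signal, eBayes with trend and robust options, averaging a symbol's clusters, all clusters with a symbol, each array left out in turn, and both arrays numbered 2 left out. The number of arrays limits the precision.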

Additional observations from a re-analysis of the deposited data

How the results depend on the processing

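None of the 32 genes passed the threshold under any of 15 alternative settings, and the lowest adjusted p (limma) was 0.0603, for Adm with array weights. Of 478 values of the 32 genes under these settings, 477 moved by less than the replicate SD, and 1 moved more, that of Gapdh under quantile normalization (0.01). That count says little about stability, since most settings could not move a difference that far. Leaving out 1 array at a time cannot shift it past that SD. Blocking, the filter, the trend and robust options and the fit of all clusters leave it unchanged. The sign changed under at least 1 setting for 14 genes, whose main differences were at most 0.12 in size, and never for 18. Hk3 and Slc16a3 were not in the fit above the median signal. Blocking on the replicate number gave 153 higher and 3 lower genes and changed no call among the 32 genes and Angptl4. Array weights gave 214 higher and 3 lower genes and a median of -0.0467 for the genes of pyruvate and lactate fate, against 0.02. Without both arrays numbered 2, 70 genes were higher and 0 lower, the HIF median was 0.16, against 0.09, and 0 of the other pathway genes were called, with Angptl4 at 0.95 (adjusted p = 0.103, limma). Leaving out 1 array at a time gave 25 to 73 higher genes and 0 to 1 lower genes, 0 called among the other pathway genes, and a HIF median of 0.0626 to 0.189. These fits have fewer arrays. The cause of the other shifts was not tested. Signals were near the array medians for Ldha, Eno1, Hk3 and Slc16a3 and for the controls of Adm, Hk2 and Angptl4. That limits what their differences show.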
